A study of Mus musculus with 47 samples.

Results

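The 10 genes described here, *Dysf*, *Myof*, *Ano5*, *Trim72*, *Anxa1*, *Anxa2*, *Anxa6*, *Cav3*, *Bin1* and *Capn3*, act in membrane repair, in the T-tubules of muscle fibres or in limb-girdle muscular dystrophy. They were chosen by name for these roles, and all 10 were found among the 45706 genes of the deposited tables.

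The study measured polyA RNA by sequencing in C2C12 cells, a mouse myoblast line that leaves the cell cycle and fuses into multinucleate myotubes when serum is withdrawn. Each line carried a transgene that doxycycline (dox) switches on, and the comparisons ask what the induced gene does to differentiation. There were 47 libraries in 16 groups, 3 per group and numbered in the labels as biological replicates 1 to 3, except that the dox group of the <40 µm fraction had 2, numbered 2 and 3. The C2C12 iMyoD1 line has its endogenous *Myod1* and an inducible Halo-MyoD1 transgene, where MyoD1 is the transcription factor that starts the muscle programme. Its 0 h groups were kept in growth medium for 24 h with dox or vehicle, and its 24 h, 48 h and 120 h groups were starved of serum for that time with dox or vehicle throughout. At 120 h, whole cultures were sequenced, as were fractions made with trypsin and a 40 µm strainer: the flow-through (<40 µm, enriched for myoblasts per the labels) and the retained part (>40 µm, enriched for myotubes), each with dox or vehicle. The C2C12 iCdh23 and C2C12 iMcam lines, with inducible *Cdh23* (a cadherin) or *Mcam* (a cell adhesion molecule of the immunoglobulin family), were starved for 48 h with dox or vehicle. Below, a group is of the C2C12 iMyoD1 line unless another line is named, and a 120 h group without a fraction is the whole culture.

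All lines hold a transposon-integrated transgene under a tetracycline-responsive promoter and were selected with puromycin, so every group, vehicle included, carries it. No group lacks a transgene, so the effect of dox alone cannot be told apart from that of the induced gene. Reads of a transgene were not counted apart from those of the mouse gene. Whether they fall in the count of the mouse gene at all is not known, so the levels below need not show the induction. *Cdh23* in the C2C12 iCdh23 line stood at 369.6, 348 and 451 CPM (counts scaled to library size) in the 3 vehicle libraries and 568, 426 and 464 with dox, so its range without dox overlapped that with dox. It averaged 9.36 CPM in the 48 h vehicle group of the C2C12 iMyoD1 line and 7.73 in that of the C2C12 iMcam line, so the C2C12 iCdh23 vehicle group already held far more. With dox in the C2C12 iMcam line, *Cdh23* averaged 51.2 CPM. In the C2C12 iMcam line, *Mcam* stood at 19.8, 17.1 and 17.3 CPM with vehicle and 69.04, 70.2 and 74.7 with dox, and these did not overlap. *Mcam* was also higher with dox in the C2C12 iCdh23 line, at 7.57, 6.51 and 4.77 CPM with vehicle and 54.6, 47.1 and 45.7 with dox. *Myod1* averaged 178 CPM in the 0 h vehicle group and 188 with dox, where the groups overlapped, and 135 and 117 at 24 h. It averaged 388 CPM in the 48 h vehicle group and 306 with dox, 279.9 and 92.03 at 120 h, 251 and 41.5 in the C2C12 iCdh23 line and 223 and 70.4 in the C2C12 iMcam line.

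Total counts ranged from 15066338 to 50950674 per library, with a median of 22837926. The 48 h dox group was the deepest, with totals from 20522001 to 50950674, and the C2C12 iMcam vehicle group the shallowest, from 15066338 to 20230829. The 3 libraries of the >40 µm dox group stood apart: over genes of 1 CPM or more on average, the mean Pearson r of a library with the others of its group was 0.879 to 0.910 there, against 0.953 or more for each library of every other group. All 3 of them, the 3 of the >40 µm vehicle group and the 2 of the <40 µm dox group were more like a library of another group than their own. The 12 myotube markers summed to 19491, 24585 and 6309 CPM in the >40 µm dox libraries, so replicate 3 held less than the other 2, and to 15179, 18980.0 and 25909 CPM with vehicle. The 0 h and 24 h libraries came in 1 table, the 48 h and 120 h whole cultures in another, and the fractions and the other lines in the last, and the labels mark all but the first with "RNAseq_v2". A difference between 48 h and 24 h can therefore not be told apart from a difference between tables. The same holds between the whole 120 h cultures and the fractions, and wherever the orders of groups below set groups of different tables side by side.

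Muscle fibres tear their surface membrane when they contract, and calcium that enters through the tear starts a repair response in which vesicles and annexins gather at the wound and close it. Dysferlin, encoded by *Dysf*, joins this response together with annexins and the TRIM protein MG53, encoded by *Trim72*, while *Bin1* and *Cav3* shape the T-tubules, the inward folds that carry the action potential to the calcium stores. Loss of dysferlin, of the calpain encoded by *Capn3* or of anoctamin 5, encoded by *Ano5*, causes limb-girdle muscular dystrophy, and differentiating C2C12 cells are a common culture model of these proteins.

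During differentiation with vehicle, the genes split by time. These are bulk libraries, in which fewer cells of a type and less RNA per cell cannot be told apart. Between 0 h and 24 h, 7 of the 10 had enough counts to be tested; by edgeR 1 rose, *Dysf*, where 37.4% of all 13632 genes tested rose, and 6 fell, where 37.1% fell (adjusted p under 0.05). Of these, *Dysf* passed 2-fold upward (9.44% of all genes did) and 4 passed it downward (16.7%): *Myof*, *Anxa1*, *Anxa6* and *Capn3*. Between 24 h and 48 h, 8 of 10 rose (38.3% of all 14017 genes) and none fell (38.5%), leaving *Myof* and *Anxa2*, which did not pass. The rise passed 2-fold for 7 genes (19.2% of all genes), and no member fell past 2-fold by edgeR (11%) or by DESeq2, with 8 at an unadjusted p under 0.05 (78.1% of all genes) and 9 passing by DESeq2 (of all genes, 5313 up and 5078 down). Between 48 h and 120 h, 6 rose (33% of all 13786 genes) and 3 fell (34%), the latter being the 3 annexins. Only *Dysf* and *Ano5* passed 2-fold upward (11.7%), and none passed it downward (18.1%) by edgeR or DESeq2, although 3 fell at an unadjusted p under 0.05; 69.7% of all genes had such a p in either direction. In the >40 µm fraction against the <40 µm fraction, both with vehicle, *Ano5* and *Capn3* rose (0.513% of all 14023 genes) and passed 2-fold (0.506%), and none fell (0.0143%) or fell past 2-fold (0.0143%); 7 members had an unadjusted p under 0.05 in either direction (15.8% of all genes), and DESeq2 called 5, all upward (399 of all genes upward). Median log2 fold changes of the members tested were -1.07 from 0 h to 24 h, 2.35 from 24 h to 48 h, 0.41 from 48 h to 120 h and 0.87 between fractions. Over all genes tested, the median lay between -0.03 and 0.04 in each of the 12 comparisons of 2 groups.

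In the C2C12 iMyoD1 line the comparisons with dox use the same vehicle libraries as those over time and between fractions, so they share controls and their counts are not independent. With dox in growth medium, at 0 h, 2 of the 8 members tested rose, *Anxa6* and *Capn3* (19.5% of all 13550 genes), and 3 fell, *Myof*, *Anxa1* and *Anxa2* (19%). None passed 2-fold upward (2.92%) or downward (1.33%) by edgeR or DESeq2, with 5 at an unadjusted p under 0.05 (6365 of all genes). Without dox replicate 3, vehicle replicate 1 or vehicle replicate 2, 1 member, *Capn3*, passed upward (of all genes, 413, 389 and 400 in that order). At 24 h, *Dysf*, *Anxa6* and *Capn3* rose of 7 tested (31.3% of all 14078 genes) and *Myof*, *Anxa1* and *Anxa2* fell (31.8%). *Capn3* passed 2-fold upward (8.05%) and *Anxa2* downward (5.14%). At 48 h no member rose (28% of all 13871 genes) and 7 of 10 fell (28.8%); 7 had an unadjusted p under 0.05 (61.5% of all genes), and DESeq2 also gave 7 at an adjusted p under 0.05 (of all genes, 3714 up and 3880 down). None passed 2-fold upward (5.91%), and *Dysf*, *Ano5* and *Trim72* passed it downward (8.45%). At 120 h, 4 rose, *Myof*, *Ano5*, *Anxa6* and *Capn3* (21.5% of all 13628 genes), and 4 fell, *Dysf*, *Trim72*, *Cav3* and *Bin1* (23.6%). None of the 4 that rose passed 2-fold by edgeR or DESeq2 (7.32%), while *Dysf*, *Cav3* and *Bin1* passed it downward (8.75%). Without vehicle replicate 2 the count past 2-fold in either direction was 5 (of all 14023 genes then tested, 894 up and 1147 down). Median log2 fold changes of the members were -0.25 at 0 h, 0.15 at 24 h, -0.49 at 48 h and -0.17 at 120 h.

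In the C2C12 iCdh23 line, 9 of 10 members fell with dox (32.4% of all 14227 genes) and none rose (31.3%), *Capn3* being the one that did not pass. All 9 fell past 2-fold (17%) and none rose past it (13%) by edgeR or DESeq2, with 9 at an unadjusted p under 0.05 (67.7% of all genes). In the C2C12 iMcam line the same 9 fell (24.8% of all 13730 genes) and *Capn3* rose (24.1%). With all groups in 1 edgeR fit, 3 of these 9 did not pass, *Myof* (adjusted p = 0.0720), *Anxa2* (0.0643) and *Anxa6* (0.0544). There, 5 fell past 2-fold (9.8%), *Dysf*, *Ano5*, *Trim72*, *Cav3* and *Bin1*, and none rose past it (6.96%) by edgeR or DESeq2. The members' median log2 fold change was -1.96 in the C2C12 iCdh23 line and -1.10 in the C2C12 iMcam line. In the <40 µm fraction no member rose (2.05% of all 14249 genes) or fell (2.88%) with dox by edgeR, none passed 2-fold upward (1.33%) or downward (2.05%), 2 had an unadjusted p under 0.05, *Anxa1* and *Capn3* (22.5% of all genes), and DESeq2 passed 1, *Anxa1* (adjusted p = 0.00838; of all genes, 691 up and 947 down), while edgeR passed *Trim72* without <40 µm vehicle replicate 1. Of all genes, edgeR passed none in either direction without <40 µm vehicle replicate 3. Members that passed with replicate numbers as a block are named in the last section. In the >40 µm fraction edgeR passed no gene of 14112 in either direction (0% up, 0% down, and 0% and 0% past 2-fold), no member had an unadjusted p under 0.05 where 0.531% of all genes did, and DESeq2 passed no member. The members' median log2 fold change was -0.13 in the <40 µm fraction and -0.10 in the >40 µm fraction.

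**Figure D1:**
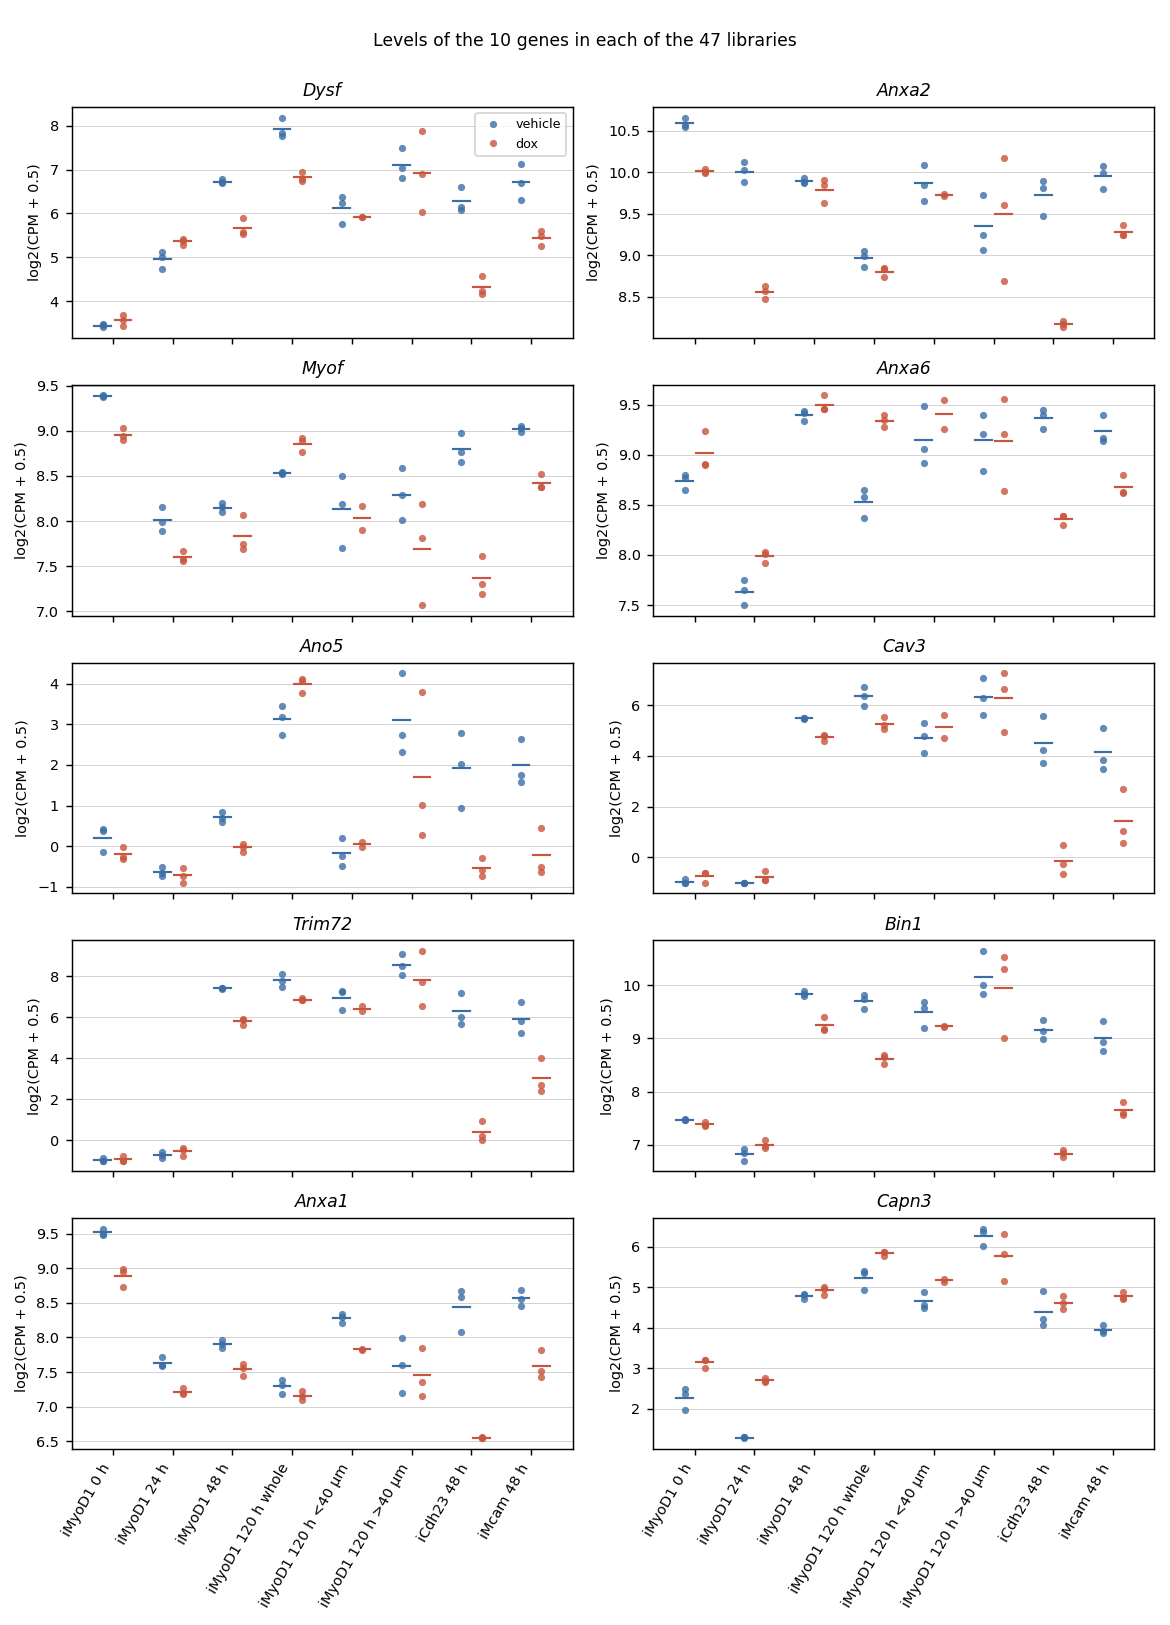
Level of each of the 10 genes as log2(CPM + 0.5) (vertical axes) in the 8 settings (horizontal axis), vehicle in blue and dox in red, with 1 point per library and a line at the mean of the points. *Trim72* and *Cav3* lie near the bottom of the scale at 0 h and 24 h in every library and are higher from 48 h on, except that *Cav3* with dox in the C2C12 iCdh23 line overlaps the 0 h and 24 h levels.

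**Figure D2:**
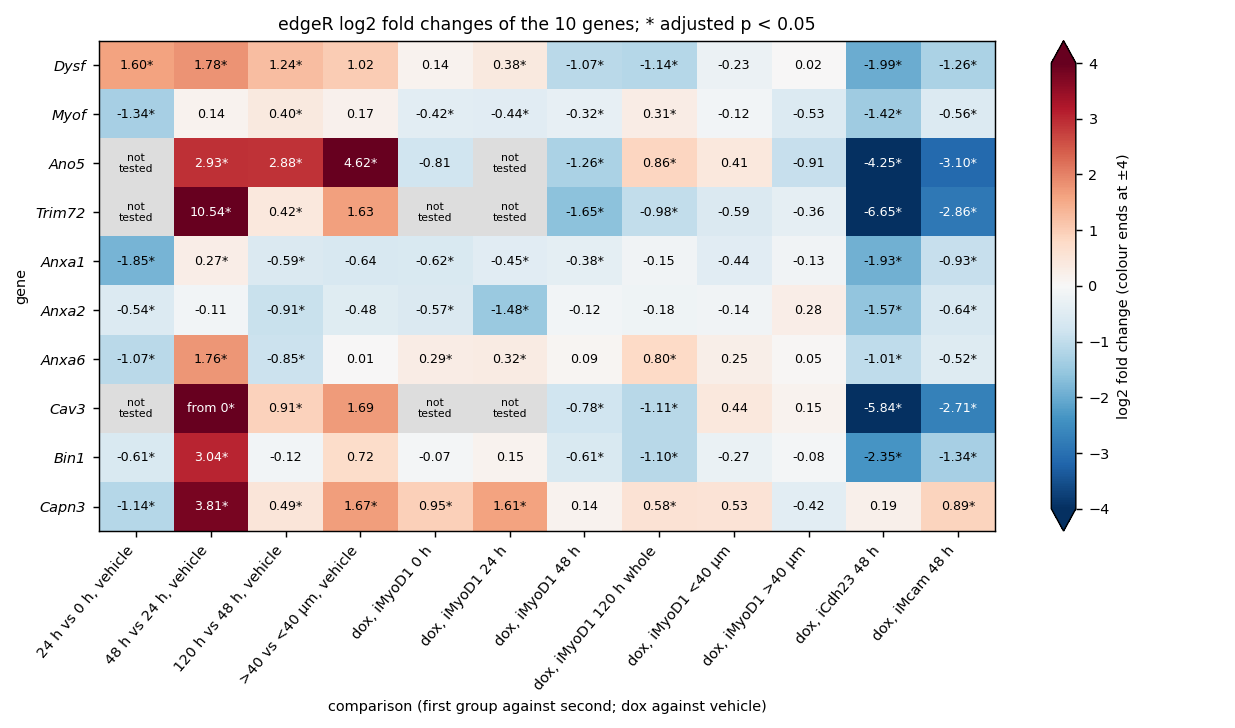
Log2 fold changes from edgeR for the 10 genes (vertical axis) in the 12 comparisons of 2 groups (horizontal axis), coloured from blue (lower in the first group) to red (higher), with * where the adjusted p is under 0.05. Grey cells were not tested for low counts, and "from 0" marks *Cav3* at 48 h, whose 3 libraries at 24 h held no count.

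Among the ferlins, *Dysf* encodes dysferlin, the calcium-binding vesicle protein of membrane repair. With vehicle, its level was 10.4, 10.1 and 10.7 CPM at 0 h, 31.8, 34.4 and 26.3 at 24 h, 110.3, 104 and 102 at 48 h and 291, 228 and 218 at 120 h. No 2 of these 4 groups overlapped, and each step was past 2-fold: log2 fold change 1.60 (SE 0.103, edgeR adjusted p = 3.21e-11) to 24 h, 1.78 (SE 0.0836, adjusted p = 3.16e-12) to 48 h and 1.24 (SE 0.110, adjusted p = 1.03e-05) to 120 h. With dox, *Dysf* stood at 42.6, 41.1 and 38.5 CPM at 24 h, 58.7, 47.5 and 45.8 at 48 h and 107, 109 and 122 at 120 h. The dox libraries were all above the vehicle libraries at 24 h and all below them at 48 h and 120 h. By edgeR, *Dysf* rose at 24 h (log2 fold change 0.38, SE 0.0855, adjusted p = 0.00148) and fell at 48 h (log2 fold change -1.07, SE 0.0933, adjusted p = 2.02e-06) and at 120 h (log2 fold change -1.14, SE 0.120, adjusted p = 5.58e-05). For *Dysf* the C2C12 iCdh23 libraries stood at 67.2, 69.9 and 96.9 CPM with vehicle and 23.4, 18.4 and 17.4 with dox, and in the C2C12 iMcam line at 78.4, 103 and 139 and 44.3, 37.8 and 48.4. Neither pair overlapped, and *Dysf* fell by edgeR in both (log2 fold change -1.99, SE 0.181, adjusted p = 6.58e-05, and -1.26, SE 0.200, adjusted p = 0.00211). The lines did not pass as different for *Dysf* (0.71, edgeR adjusted p = 0.168), but did without C2C12 iMcam vehicle replicate 3 (0.0428).

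In the order of mean levels (CPM ± SD), *Dysf* was highest in 120 h vehicle (246 ± 39.3). Here and below, a group called apart overlaps neither neighbour in its order but may overlap others of wide spread: replicate 2 of the >40 µm dox group, at 234 CPM, lies within the range of this leading group. Then came >40 µm vehicle (140.1 ± 34.1), >40 µm dox (139 ± 86.6), 120 h dox (113 ± 8.29), C2C12 iMcam vehicle (107 ± 30.3) and 48 h vehicle (106 ± 4.22), each overlapping the next. Lower stood C2C12 iCdh23 vehicle (77.99 ± 16.4), <40 µm vehicle (70.3 ± 14.8) and <40 µm dox (59.6 ± 0.0544), each overlapping the next. Below these and without overlap with the last of them came 48 h dox (50.7 ± 7.06), C2C12 iMcam dox (43.5 ± 5.35) and 24 h dox (40.7 ± 2.04), also each overlapping the next. The order ended with 24 h vehicle (30.8 ± 4.13), C2C12 iCdh23 dox (19.7 ± 3.20), and, overlapping each other, 0 h dox (11.3 ± 0.983) and 0 h vehicle (10.4 ± 0.291). Of the 11 annotated *Dysf* transcripts, *Dysf-202* held 60.6% of the gene's counts in the 120 h vehicle group and 50.3% with dox. *Dysf-210* held 28.1% in the 48 h vehicle group and 39.7% with dox, but 5.10% at 0 h with dox and 14.1% in the 120 h vehicle group. The split between *Dysf* transcripts is an estimate and varied between replicates: for *Dysf-210* in the >40 µm dox group it was 84.2%, 31.1% and 26.1%.

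*Myof* encodes myoferlin, a ferlin that acts in myoblast fusion and vesicle trafficking. It stood at 672, 670.2 and 664 CPM at 0 h, 286, 254 and 237 at 24 h, 294, 284 and 273 at 48 h and 367, 369 and 373 at 120 h with vehicle. The 0 h libraries were the highest of these 4 groups and the 24 h and 48 h libraries overlapped. *Myof* fell to 24 h by edgeR (log2 fold change -1.34, SE 0.0671, adjusted p = 6.86e-13) and rose from 48 h to 120 h (log2 fold change 0.40, SE 0.0751, adjusted p = 0.00107). Between 24 h and 48 h it did not pass (0.14, edgeR adjusted p = 0.0698), but did by DESeq2 (0.0383), with RLE normalisation and without 24 h vehicle replicate 1 (lowest adjusted p over all alternatives 0.00194). With dox, it stood at 523, 490.2 and 475 CPM at 0 h, 203, 191 and 188 at 24 h, 268, 215 and 207 at 48 h and 483, 434 and 472 at 120 h. All 3 dox libraries lay below vehicle at 0 h, 24 h and 48 h and all 3 above it at 120 h. In edgeR's test it fell at 0 h (log2 fold change -0.42, adjusted p = 1.10e-05) and 24 h (-0.44, 1.91e-05). It also fell at 48 h (-0.32, adjusted p = 0.0119 by edgeR), which did not hold without vehicle replicate 1 or dox replicate 2 (adjusted p up to 0.0661). At 120 h it rose (0.31, edgeR adjusted p = 0.0112), which did not hold without vehicle replicate 2 or dox replicate 3. Nor did it hold with replicate numbers as a block, which gave edgeR's highest adjusted p over all alternatives (0.0660). Residual correlations of libraries with the same number ran from -0.227 to 0.0399 here, so the numbers do not pair these libraries. The dox effects at 120 h and 48 h differed by 0.63 (log2, SE 0.132, edgeR adjusted p = 0.00192). *Myof* in the C2C12 iCdh23 line stood at 501, 433 and 402 CPM with vehicle and 195, 146 and 157 with dox, and in the C2C12 iMcam line at 521, 529 and 505 and 367, 331 and 331. Dox was the lower group in every library of both lines, and *Myof* fell more in the C2C12 iCdh23 line (-1.42, edgeR adjusted p = 0.000117) than in the C2C12 iMcam line (-0.56, 0.00203), a difference of 0.85 (SE 0.173, adjusted p = 0.0102).

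By mean level, *Myof* was highest in 0 h vehicle (669 ± 4.07) CPM, followed without overlap by C2C12 iMcam vehicle (519 ± 12.3), 0 h dox (496 ± 24.7), 120 h dox (463 ± 26.1) and C2C12 iCdh23 vehicle (445 ± 50.8), which overlapped each other in turn. Next, apart from both neighbours, was 120 h vehicle (369.6 ± 2.92). Below it lay C2C12 iMcam dox (343 ± 20.8), >40 µm vehicle (317 ± 63.5), <40 µm vehicle (287 ± 77.9), 48 h vehicle (283 ± 10.3), <40 µm dox (262 ± 33.1), 24 h vehicle (259 ± 24.7), 48 h dox (229.8 ± 33.4), >40 µm dox (217 ± 79.3), 24 h dox (194 ± 7.63) and C2C12 iCdh23 dox (166 ± 25.7), each overlapping the next. *Dysf* and *Myof* did not go together: over the 16 group means, Pearson r of their log2 levels was -0.098. *Myof-201* was the 1 transcript of *Myof* that held 10% or more of its counts in any group.

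*Ano5* encodes anoctamin 5, a membrane protein of the endoplasmic reticulum that takes part in repair. It held 3403 counts over all 47 libraries and was not tested at 24 h for low counts. With vehicle it stood at 0.837, 0.400 and 0.798 CPM at 0 h, 0.203, 0.106 and 0.139 at 24 h, 1.01, 1.12 and 1.29 at 48 h and 6.15, 10.4 and 8.47 at 120 h. The 120 h libraries were above all earlier ones, and the 24 h libraries were the lowest; *Ano5* rose from 24 h to 48 h (log2 fold change 2.93, SE 0.434, adjusted p = 7.37e-06 by edgeR) and from 48 h to 120 h (log2 fold change 2.88, SE 0.258, adjusted p = 1.05e-05). The dox libraries stood at 0.409, 0.545 and 0.492 CPM at 48 h and 16.1, 13.1 and 16.8 at 120 h. The dox libraries were all below vehicle at 48 h and all above it at 120 h. *Ano5* fell at 48 h (log2 fold change -1.26, SE 0.304, adjusted p = 0.00396 by edgeR) and rose at 120 h (log2 fold change 0.86, SE 0.207, adjusted p = 0.00739), and the difference between these effects was 2.13 (log2, SE 0.341, adjusted p = 0.000226). *Ano5* in the C2C12 iCdh23 line stood at 1.42, 3.59 and 6.37 CPM with vehicle and 0.167, 0.0993 and 0.321 with dox, and in the C2C12 iMcam line at 2.51, 2.89 and 5.72 and 0.147, 0.204 and 0.875. Neither pair overlapped, and *Ano5* fell by edgeR in both lines (-4.25, SE 0.674, adjusted p = 0.00105, and -3.10, SE 0.617, adjusted p = 0.00511). The size of each rests on replicate 3: the log2 fold change of *Ano5* was -3.65 without vehicle replicate 3 of the C2C12 iCdh23 line and -4.31 without dox replicate 3 of the C2C12 iMcam line.

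In the fractions, *Ano5* stood at 6.21, 18.6 and 4.46 CPM in the >40 µm vehicle libraries and 0.656, 0.352 and 0.217 in the <40 µm vehicle libraries. The lowest >40 µm library was above the highest <40 µm library, and replicate 2 of the >40 µm fraction was the highest of all. *Ano5* was 24.6-fold higher in the >40 µm fraction (log2 fold change 4.62, SE 0.702, adjusted p = 0.0434 by edgeR), which did not hold without >40 µm replicate 3 or any of the 3 <40 µm replicates (adjusted p up to 0.207). The size of this difference depends on >40 µm replicate 2, without which the log2 fold change was 3.73. With replicate numbers as a block, the adjusted p by edgeR was 0.00802. From highest to lowest mean, the groups were 120 h dox (15.3 ± 1.97), >40 µm vehicle (9.76 ± 7.72), 120 h vehicle (8.36 ± 2.15), >40 µm dox (5.17 ± 7.03), C2C12 iCdh23 vehicle (3.79 ± 2.48) and C2C12 iMcam vehicle (3.70 ± 1.76), each overlapping the next. After these came 48 h vehicle (1.14 ± 0.143), and then, with overlapping neighbours, 0 h vehicle (0.678 ± 0.242), <40 µm dox (0.533 ± 0.0629), 48 h dox (0.482 ± 0.0684), C2C12 iMcam dox (0.409 ± 0.405), <40 µm vehicle (0.408 ± 0.225), 0 h dox (0.373 ± 0.0953), C2C12 iCdh23 dox (0.196 ± 0.114), 24 h vehicle (0.149 ± 0.0492) and 24 h dox (0.113 ± 0.0801). Its order was thus led by 120 h cultures, with the <40 µm fraction among the low groups.

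*Trim72* encodes MG53, a muscle TRIM protein that nucleates the repair patch. With vehicle it stood at 0, 0 and 0.0499 CPM at 0 h, 0.0406, 0.106 and 0.173 at 24 h, 175, 169 and 172 at 48 h and 281, 221 and 179 at 120 h. Levels at 0 h and 24 h were a few counts at most, and all later libraries were far above them. *Trim72* rose between 24 h and 48 h (edgeR adjusted p = 1.12e-20); the 24 h vehicle libraries held 1, 3 and 5 counts, so the fitted log2 fold change of 10.54 is imprecise. From 48 h to 120 h the change was smaller (log2 fold change 0.42, SE 0.139, adjusted p = 0.0234 by edgeR), and it did not hold without any 1 of the 3 vehicle libraries at 48 h or vehicle replicate 2 at 120 h (adjusted p up to 0.0763). The *Trim72* level with dox was 57.7, 48.7 and 60.4 CPM at 48 h and 115, 113 and 120.4 at 120 h. Dox was below vehicle in every library at both times. *Trim72* fell 3.13-fold at 48 h (log2 fold change -1.65, SE 0.0872, adjusted p = 4.41e-08 by edgeR) and less at 120 h (log2 fold change -0.98, SE 0.145, adjusted p = 0.000535), and the effects differed by 0.66 (log2, SE 0.182, adjusted p = 0.0116).

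In the C2C12 iCdh23 line, *Trim72* stood at 49.97, 63.8 and 146 CPM with vehicle and 0.501, 0.662 and 1.39 with dox. In the C2C12 iMcam line it stood at 37.1, 55.8 and 105 CPM with vehicle and 4.80, 5.91 and 15.8 with dox. The groups did not overlap in either line, vehicle replicate 3 was the highest in both, and dox left less in the C2C12 iCdh23 line. *Trim72* fell 100.4-fold in the C2C12 iCdh23 line (log2 fold change -6.65, SE 0.596, adjusted p = 9.32e-05 by edgeR), the largest fold among the members in any dox comparison, and fell in the C2C12 iMcam line as well (log2 fold change -2.86, SE 0.567, adjusted p = 0.00677). Without vehicle replicate 3 the former was -6.05, and without dox replicate 3 the latter was -3.58. The difference between the lines was 3.77 (log2, edgeR adjusted p = 0.0287); it did not hold without C2C12 iCdh23 vehicle replicate 3, its dox replicates 1 or 2, C2C12 iMcam vehicle replicates 1 or 2 or its dox replicate 3 (adjusted p up to 0.0917), and was 2.50e-05 with replicate numbers as a block.

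By mean, *Trim72* was highest in >40 µm vehicle (394 ± 138), >40 µm dox (302 ± 269) and 120 h vehicle (227 ± 51.2), which overlapped in turn. Apart from its neighbours was 48 h vehicle (172 ± 3.05). Then came <40 µm vehicle (129 ± 41.8), 120 h dox (116 ± 3.95), C2C12 iCdh23 vehicle (86.7 ± 52.1), <40 µm dox (85.00 ± 10.7), C2C12 iMcam vehicle (66.1 ± 35.2) and 48 h dox (55.6 ± 6.15), with overlapping neighbours, and below them, each apart, C2C12 iMcam dox (8.85 ± 6.08) and C2C12 iCdh23 dox (0.851 ± 0.474). At the bottom, each overlapping the next, were 24 h dox (0.185 ± 0.0904), 24 h vehicle (0.107 ± 0.0663), 0 h dox (0.0267 ± 0.0462) and 0 h vehicle (0.0166 ± 0.0288). Of its 2 transcripts, *Trim72-201* held 1.71%, 18.2% and 23.8% of the counts in the 120 h vehicle libraries and 46.5%, 26.9% and 38.5% with dox, against at most 5.12% in any library outside these groups.

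The annexins bind membranes when calcium rises, and *Anxa1*, *Anxa2* and *Anxa6* have each been placed at repair sites. *Anxa1* stood at 717, 723 and 762 CPM at 0 h, 193, 193 and 210.5 at 24 h, 238, 231 and 248 at 48 h and 145, 158 and 167 at 120 h with vehicle. It was highest in growth medium, where no library overlapped a later one, and *Anxa1* fell to 24 h by edgeR (log2 fold change -1.85, SE 0.0630, adjusted p = 1.83e-15). A small rise followed to 48 h (0.27, edgeR adjusted p = 0.000431) and a fall to 120 h (-0.59, 0.000246). With dox, *Anxa1* stood at 423, 495 and 509 CPM at 0 h, 146, 145 and 153 at 24 h, 174, 195 and 189 at 48 h and 149, 136 and 141 at 120 h. Dox was below vehicle in every library at 0 h, 24 h and 48 h, and the groups overlapped at 120 h. By edgeR, *Anxa1* fell at 0 h (-0.62, adjusted p = 1.60e-06), 24 h (-0.45, 3.19e-06) and 48 h (-0.38, 0.000351), and at 120 h its value was -0.15 (0.183). *Anxa1* in the C2C12 iCdh23 line stood at 407, 382 and 271 CPM with vehicle and 92.6, 94.1 and 92.8 with dox, and in the C2C12 iMcam line at 412, 349 and 376 and 225, 183 and 171. Neither pair overlapped; *Anxa1* fell in both lines (-1.93, edgeR adjusted p = 3.76e-05, and -0.93, 0.00105), by 0.97 log2 units less in the C2C12 iMcam line (adjusted p = 0.0125).

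For *Anxa1*, 0 h vehicle (734 ± 24.5) led, followed by 0 h dox (475 ± 46.01), both apart from their neighbours. Then came C2C12 iMcam vehicle (379 ± 31.9), C2C12 iCdh23 vehicle (354 ± 72.4) and <40 µm vehicle (311 ± 14.6), which overlapped in turn, and, each apart, 48 h vehicle (239 ± 8.45) and <40 µm dox (227 ± 1.06). A long run of groups that overlapped in turn followed: 24 h vehicle (199 ± 10.2), >40 µm vehicle (197 ± 54.1), C2C12 iMcam dox (193 ± 28.4), 48 h dox (186 ± 10.5), >40 µm dox (178 ± 45.6), 120 h vehicle (157 ± 11.3), 24 h dox (148 ± 4.55) and 120 h dox (142 ± 6.60). The lowest group, apart, was C2C12 iCdh23 dox (93.2 ± 0.825).

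*Anxa2* stood at 1513, 1615 and 1488 CPM at 0 h, 939, 1039 and 1113 at 24 h, 945, 933 and 975 at 48 h and 508, 531 and 465 at 120 h with vehicle. The 0 h libraries were the highest and the 120 h libraries the lowest, with 24 h and 48 h overlapping. *Anxa2* fell to 24 h (-0.54, edgeR adjusted p = 1.68e-06) and from 48 h to 120 h (-0.91, 1.50e-05). Between 24 h and 48 h it did not pass (-0.11, edgeR adjusted p = 0.164), but did without 24 h vehicle replicate 1 (0.0113). Dox libraries held 1048, 1018 and 1026 CPM at 0 h, 354, 378 and 395 at 24 h, 789.7, 954 and 919 at 48 h and 425, 454 and 458 at 120 h. At 0 h and 24 h every dox library was below every vehicle library, at 120 h also, and at 48 h they overlapped. *Anxa2* fell with dox at 24 h (log2 fold change -1.48, SE 0.0741, adjusted p = 9.94e-11 by edgeR) and less at 0 h (log2 fold change -0.57, SE 0.0560, adjusted p = 6.20e-07), and the effect at 24 h was the larger one by -0.96 (log2, SE 0.0966, adjusted p = 9.94e-08). At 48 h and 120 h its log2 fold changes were -0.12 (edgeR adjusted p = 0.242) and -0.18 (0.113), the latter passing without vehicle replicate 3 (0.0246). The C2C12 iCdh23 libraries held *Anxa2* at 949.9, 893 and 710.2 CPM with vehicle and 287, 294 and 279.7 with dox, and in the C2C12 iMcam line at 1015, 892 and 1077 and 658, 607 and 605. No library of these pairs overlapped; *Anxa2* fell in both (-1.57, edgeR adjusted p = 3.63e-05, and -0.64, 0.00213), and the effects differed by 0.91 (adjusted p = 0.00483).

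The order of *Anxa2* began with 0 h vehicle (1539 ± 67.4), apart from the next. Overlapping in turn were 0 h dox (1030.3 ± 15.6), 24 h vehicle (1030.1 ± 87.1), C2C12 iMcam vehicle (995 ± 93.96), 48 h vehicle (951 ± 21.8), <40 µm vehicle (938 ± 144), 48 h dox (888 ± 86.6), C2C12 iCdh23 vehicle (851 ± 125), <40 µm dox (844 ± 11.1), >40 µm dox (782 ± 372), >40 µm vehicle (663 ± 164) and C2C12 iMcam dox (623 ± 30.6). Each apart from its neighbours, the last 4 were 120 h vehicle (501 ± 33.6), 120 h dox (445 ± 17.8), 24 h dox (376 ± 21.02) and C2C12 iCdh23 dox (287 ± 7.37). Over the 16 group means, *Anxa1* and *Anxa2* had a Pearson r of 0.854.

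*Anxa6* stood at 436, 443 and 402 CPM at 0 h, 181, 214 and 201 at 24 h, 691, 645 and 683 at 48 h and 400.0, 381 and 329 at 120 h with vehicle. The 24 h libraries were the lowest and the 48 h libraries the highest of these. *Anxa6* fell to 24 h (log2 fold change -1.07, SE 0.0684, adjusted p = 3.55e-11 by edgeR), rose to 48 h (log2 fold change 1.76, SE 0.0692, adjusted p = 6.28e-14) and fell again to 120 h (log2 fold change -0.85, SE 0.0923, adjusted p = 3.67e-05). With dox it stood at 602, 481 and 477 CPM at 0 h, 242, 257 and 261 at 24 h, 702, 700.4 and 773 at 48 h and 622, 649.8 and 674 at 120 h. Dox was above vehicle in every library at each of these times. It was the annexin that rose with dox: at 0 h (0.29, edgeR adjusted p = 0.00853, and 0.0536 without vehicle replicate 3), at 24 h (0.32, 0.000435) and at 120 h (0.80, SE 0.0961, 0.000133), while at 48 h it did not pass (0.09, 0.305). The effects at 120 h and 48 h differed by 0.71 (log2, SE 0.123, edgeR adjusted p = 0.000459). The C2C12 iCdh23 libraries held *Anxa6* at 697, 672 and 613 CPM with vehicle and 315, 335 and 336 with dox, and in the C2C12 iMcam line at 564, 576 and 674 and 395, 392 and 445. There dox was below vehicle in every library, and *Anxa6* fell (-1.01, edgeR adjusted p = 6.66e-05, and -0.52, 0.00503). The fall in the C2C12 iCdh23 line is at the edge of 2-fold: without vehicle replicate 1 or dox replicate 1, *Anxa6* no longer passed it and 8 members did. The difference between the lines, 0.47 (adjusted p = 0.0466 by edgeR), passed with 2 of the 12 libraries left out, C2C12 iCdh23 vehicle replicate 3 and C2C12 iMcam vehicle replicate 3, and with none of the other 10 (adjusted p up to 0.104).

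For *Anxa6* the order began with 10 groups that overlapped in turn: 48 h dox (725 ± 41.4), <40 µm dox (680.5 ± 95.6), 48 h vehicle (673 ± 24.3), C2C12 iCdh23 vehicle (661 ± 42.9), 120 h dox (649 ± 26.2), C2C12 iMcam vehicle (605 ± 60.7), >40 µm dox (581 ± 178), <40 µm vehicle (577 ± 123), >40 µm vehicle (573 ± 109) and 0 h dox (519.7 ± 71.2). Next in the order came 0 h vehicle (427 ± 21.9), C2C12 iMcam dox (411 ± 30.2), 120 h vehicle (370.0 ± 36.7) and C2C12 iCdh23 dox (329 ± 11.8), with overlapping neighbours. The 24 h groups were the lowest and apart from each other, 24 h dox (253 ± 10.2) and 24 h vehicle (199 ± 17.01). Its 2 main transcripts kept similar shares, with *Anxa6-202* at 57.3% to 70.6% of the gene's counts in every group.

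*Cav3* encodes caveolin 3, the muscle caveolin of surface caveolae and developing T-tubules. With vehicle it stood at 0, 0 and 0.0499 CPM at 0 h, 0, 0 and 0 at 24 h, 42.9, 44.8 and 44.3 at 48 h and 103, 80.6 and 62.4 at 120 h. None of the 3 libraries at 24 h held a count, and those at 48 h and 120 h were far above. Against the level that 3 counts per library would give (0.111 CPM), *Cav3* was at least 398-fold higher at 48 h (edgeR adjusted p = 3.88e-17). It rose again to 120 h (log2 fold change 0.91, SE 0.156, adjusted p = 0.000683 by edgeR). The dox level of *Cav3* was 23.4, 26.8 and 27.8 CPM at 48 h and 32.7, 46.2 and 36.1 at 120 h. Every dox library was below every vehicle library at both times. *Cav3* fell at 48 h (log2 fold change -0.78, SE 0.0839, adjusted p = 1.12e-05 by edgeR) and at 120 h (log2 fold change -1.11, SE 0.193, adjusted p = 0.00170), and the effects did not pass as different (-0.33, adjusted p = 0.285; 0.0411 without vehicle replicate 3 at 120 h). *Cav3* in the C2C12 iCdh23 line stood at 12.6, 18.1 and 47.6 CPM with vehicle and 0.334, 0.132 and 0.892 with dox, and in the C2C12 iMcam line at 10.8, 13.6 and 33.4 and 0.979, 1.58 and 5.99. Replicate 3 was the highest of its group in all 4 groups, and the groups did not overlap in either line. *Cav3* fell 57.3-fold in the C2C12 iCdh23 line (log2 fold change -5.84, SE 0.766, adjusted p = 0.000538 by edgeR) and also fell in the C2C12 iMcam line (log2 fold change -2.71, SE 0.724, adjusted p = 0.0209), where it did not pass without vehicle replicate 3 or dox replicate 2 (adjusted p up to 0.107). The log2 fold change of *Cav3* in the C2C12 iCdh23 line was -5.08 without vehicle replicate 3 and -6.84 without dox replicate 3, and in the C2C12 iMcam line -2.06 and -3.87 without the same replicates. The lines did not pass as different (3.10, edgeR adjusted p = 0.143), but did with replicate numbers as a block (0.00154).

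By mean, *Cav3* was highest in >40 µm dox (93.8 ± 61.5), >40 µm vehicle (86.7 ± 43.9) and 120 h vehicle (81.9 ± 20.2), in overlap. Then, each overlapping the next, came 48 h vehicle (44.01 ± 1.00), 120 h dox (38.3 ± 7.02), <40 µm dox (36.7 ± 15.5), <40 µm vehicle (27.3 ± 10.96), C2C12 iCdh23 vehicle (26.1 ± 18.8), 48 h dox (25.97 ± 2.30) and C2C12 iMcam vehicle (19.3 ± 12.3). Apart from these was C2C12 iMcam dox (2.85 ± 2.73), and at the bottom, overlapping in turn, were C2C12 iCdh23 dox (0.453 ± 0.393), 0 h dox (0.103 ± 0.0896), 24 h dox (0.0921 ± 0.0907), 0 h vehicle (0.0166 ± 0.0288) and 24 h vehicle (0 ± 0). *Trim72* and *Cav3* had a Pearson r of 0.995 over the 16 group means of log2 level, the highest of the 45 pairs of members.

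*Bin1* encodes amphiphysin 2, a protein that bends membranes and helps to form T-tubules. With vehicle it stood at 175, 176 and 178 CPM at 0 h, 103, 114 and 120.0 at 24 h, 957, 886 and 918 at 48 h and 905, 857 and 756 at 120 h. The 24 h libraries were the lowest, and the 48 h and 120 h libraries were high, with the lowest of 48 h below the highest of 120 h. *Bin1* fell to 24 h (log2 fold change -0.61, SE 0.0616, adjusted p = 2.78e-08 by edgeR) and rose to 48 h (log2 fold change 3.04, SE 0.0709, adjusted p = 2.78e-17). With dox it stood at 571, 582 and 675 CPM at 48 h and 366, 401 and 414 at 120 h. Dox was below vehicle in every library at 48 h and 120 h. *Bin1* fell at 48 h (log2 fold change -0.61, SE 0.0836, adjusted p = 7.59e-05 by edgeR) and more at 120 h (log2 fold change -1.10, SE 0.0983, adjusted p = 1.92e-05), a difference of -0.49 (log2, SE 0.133, adjusted p = 0.0103). At 0 h and 24 h the effect of dox on *Bin1* did not pass (-0.07, edgeR adjusted p = 0.291, and 0.15, 0.0581), although at 24 h it did without vehicle replicate 3 (lowest adjusted p over all alternatives 0.0191). *Bin1* in the C2C12 iCdh23 line stood at 511, 563 and 649 CPM with vehicle and 108, 118 and 113 with dox, and in the C2C12 iMcam line at 436, 489 and 643 and 193, 187 and 224. Vehicle was above dox in every library, and *Bin1* fell 5.08-fold in the C2C12 iCdh23 line (log2 fold change -2.35, SE 0.114, adjusted p = 5.67e-06 by edgeR) and less in the C2C12 iMcam line (log2 fold change -1.34, SE 0.152, adjusted p = 0.000499), with a difference of 0.99 (adjusted p = 0.00993).

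The order of *Bin1* began with 9 groups that overlapped in turn: >40 µm vehicle (1183 ± 373), >40 µm dox (1092 ± 513), 48 h vehicle (920.3 ± 35.9), 120 h vehicle (839 ± 76.1), <40 µm vehicle (727 ± 125), 48 h dox (609 ± 56.96), <40 µm dox (599 ± 7.63), C2C12 iCdh23 vehicle (574 ± 69.7) and C2C12 iMcam vehicle (523 ± 108). Then, each apart from the next, came 120 h dox (394 ± 24.7), C2C12 iMcam dox (201 ± 19.9), 0 h vehicle (176 ± 1.34), 0 h dox (167 ± 4.16) and 24 h dox (127 ± 6.74). The last pair overlapped: C2C12 iCdh23 dox (113 ± 5.17) and 24 h vehicle (113 ± 8.45). *Bin1-202* was the 1 transcript of *Bin1* above 10% of its counts in any group, so these files do not separate the forms of *Bin1* that differ by an exon.

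*Capn3* encodes calpain 3, a muscle protease bound to titin. With vehicle it stood at 5.08, 4.65 and 3.39 CPM at 0 h, 1.95, 1.95 and 1.90 at 24 h, 27.3, 28.1 and 25.9 at 48 h and 41.9, 40.6 and 30.2 at 120 h. No 2 of these groups overlapped. *Capn3* fell to 24 h (log2 fold change -1.14, SE 0.206, adjusted p = 5.65e-05 by edgeR), rose to 48 h (log2 fold change 3.81, SE 0.114, adjusted p = 1.11e-15) and rose again to 120 h (log2 fold change 0.49, SE 0.130, adjusted p = 0.00780). With dox it stood at 8.77, 8.72 and 7.54 CPM at 0 h, 5.96, 6.25 and 5.83 at 24 h, 31.9, 27.7 and 30.8 at 48 h and 57.8, 57.6 and 54.5 at 120 h. Every dox library was above every vehicle library at 0 h, 24 h and 120 h, and the groups overlapped at 48 h. *Capn3* rose with dox at 0 h (log2 fold change 0.95, SE 0.161, adjusted p = 0.000186 by edgeR), 3.05-fold at 24 h (log2 fold change 1.61, SE 0.141, adjusted p = 6.76e-08) and at 120 h (log2 fold change 0.58, SE 0.132, adjusted p = 0.00555), while at 48 h its value was 0.14 (0.198, and 0.0114 with counts scaled by transcript length). Its effect at 24 h exceeded that at 0 h by 0.61 (log2, edgeR adjusted p = 0.0321), which did not hold without 0 h dox replicate 3, 0 h vehicle replicates 1 or 2, 24 h dox replicates 1 or 2 or 24 h vehicle replicates 2 or 3 (adjusted p up to 0.102). The effect at 120 h exceeded that at 48 h by 0.44 (edgeR adjusted p = 0.0454), which held without 120 h vehicle replicate 1 or 2 but not without any 1 of the other 10 libraries (adjusted p up to 0.147).

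In the C2C12 iCdh23 line, *Capn3* stood at 16.3, 18.1 and 29.3 CPM with vehicle and 23.9, 21.6 and 27.04 with dox. These overlapped, since vehicle replicate 3 was above all dox libraries, and the value was 0.19 (edgeR adjusted p = 0.489, and 0.00812 without that library). In the C2C12 iMcam line it stood at 14.02, 14.6 and 16.2 CPM with vehicle and 25.7, 26.3 and 28.97 with dox. Dox was higher in every library there, and *Capn3* rose (log2 fold change 0.89, SE 0.103, adjusted p = 0.000529 by edgeR). The lines did not pass as different (0.68, edgeR adjusted p = 0.132), but did with replicate numbers as a block (0.0433) and without C2C12 iCdh23 vehicle replicate 1. *Capn3* was thus the 1 member that fell in neither line.

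Between fractions, *Capn3* stood at 64.2, 82.01 and 87.01 CPM in the >40 µm and 23.2, 22.1 and 29.1 in the <40 µm vehicle libraries. All 3 libraries of the >40 µm fraction were above the other 3. *Capn3* was 3.19-fold higher in the >40 µm fraction (log2 fold change 1.67, SE 0.181, adjusted p = 0.0308 by edgeR), which did not hold without >40 µm replicate 3 or any of the 3 <40 µm replicates (adjusted p up to 0.150), and the adjusted p was 0.00248 with replicate numbers as a block. By mean, *Capn3* was highest in >40 µm vehicle (77.7 ± 11.99), >40 µm dox (57.1 ± 22.02) and 120 h dox (56.6 ± 1.85), which overlapped in turn, followed by 120 h vehicle (37.6 ± 6.42) and <40 µm dox (35.6 ± 1.32), which also overlapped. Then came 48 h dox (30.1 ± 2.16), 48 h vehicle (27.1 ± 1.11), C2C12 iMcam dox (26.99 ± 1.75), <40 µm vehicle (24.8 ± 3.78), C2C12 iCdh23 dox (24.2 ± 2.71) and C2C12 iCdh23 vehicle (21.2 ± 7.07), with overlapping neighbours. The last 5 groups were each apart: C2C12 iMcam vehicle (14.9 ± 1.14), 0 h dox (8.34 ± 0.698), 24 h dox (6.01 ± 0.216), 0 h vehicle (4.37 ± 0.876) and 24 h vehicle (1.93 ± 0.0263).

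The *Capn3* total hides a split between transcripts, of which 6 are annotated as coding and 7 are not. In the 48 h vehicle libraries the coding transcripts held 74.5%, 92.1% and 63.8% of the gene's counts, and with dox 34.4%, 38.3% and 68.8%. The 2 groups overlapped through dox replicate 3, and the coding level itself was 20.4, 25.9 and 16.5 CPM with vehicle and 10.97, 10.6 and 21.2 with dox. The coding share in the C2C12 iCdh23 line was 44.3%, 88.5% and 94.7% with vehicle and 30.3%, 22.9% and 53.0% with dox, again in overlap. At 24 h it was 35.3%, 8.43% and 13.9% with vehicle and 5.04%, 9.90% and 17.3% with dox, and the coding level was 0.691, 0.164 and 0.262 CPM with vehicle and 0.301, 0.618 and 1.01 with dox, so both overlapped and the rise of the *Capn3* total at 24 h lay mostly in the other transcripts (means 1.56 and 5.37 CPM). The share in the C2C12 iMcam line was 31.8%, 43.9% and 90.2% with vehicle and 32.8%, 83.1% and 31.7% with dox, and in the <40 µm fraction 42.2%, 38.6% and 55.8% with vehicle and 40.8% and 46.7% with dox, both in overlap. At 120 h it was 94.0%, 94.4% and 94.5% with vehicle and 73.2%, 85.4% and 89.7% with dox, which did not overlap. The coding level there was 39.4, 38.4 and 28.6 CPM with vehicle and 42.3, 49.2 and 48.9 with dox. It was thus higher with dox in every library, although the share was lower. Between fractions with vehicle, the share was 88.9%, 89.7% and 88.9% in the >40 µm and, as above, lower in the <40 µm libraries. The >40 µm libraries were all higher in share. Most of the rest was *Capn3-211*, a processed transcript that begins within the neighbouring gene *Ganc* on the same strand, and the split is an estimate that can move between replicates: in the 0 h vehicle libraries it ranged from 0% to 91.1% coding. No test was made of these shares.

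**Figure D3:**
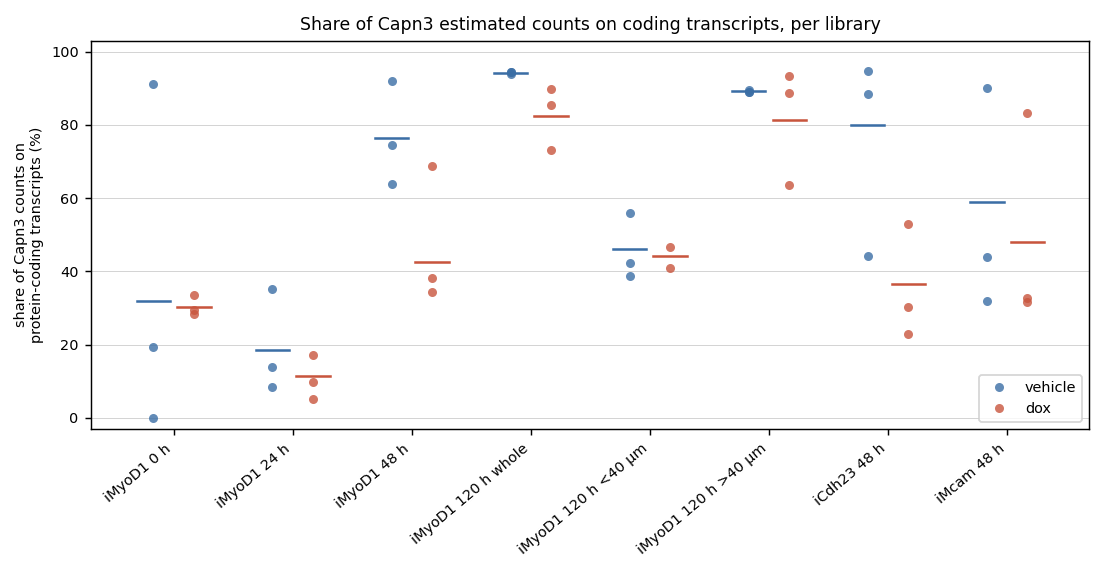
Share of *Capn3* estimated counts on its 6 coding transcripts (vertical axis, percent) in the 8 settings (horizontal axis), vehicle in blue and dox in red, with 1 point per library and a line at the share of the group's summed counts. The >40 µm vehicle libraries all lie above the <40 µm vehicle libraries, and the 48 h groups overlap.

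Other members did not pass edgeR's test between the fractions, and 4 of them, *Trim72*, *Cav3*, *Dysf* and *Bin1*, were higher in every >40 µm vehicle library, while *Anxa1* was lower in every one (254, 146 and 193 against 323, 295 and 315 CPM). *Trim72* stood at 271, 367 and 544 CPM against 81.1, 156 and 150.4 in the <40 µm libraries, *Cav3* at 48.1, 134 and 77.5 against 16.5, 38.5 and 26.9 and *Dysf* at 112, 130.2 and 178 against 53.6, 81.9 and 75.3. *Bin1* stood at 1024, 915 and 1608 CPM against 586, 828 and 766. In each of these 4 genes the lowest >40 µm library was above the highest <40 µm library. How many of all genes separated in this way was not counted, while 15.8% had an unadjusted p under 0.05. The edgeR values were 1.63 (adjusted p = 0.0832) for *Trim72*, 1.69 (0.136) for *Cav3* and 1.02 (0.0989) for *Dysf*. With replicate numbers as a block, those 3 passed (adjusted p 0.00402, 0.00233 and 0.0130), and the count of members past 2-fold was 5 in place of 2 (of all genes, 341 up and 168 down in place of 71 and 2). Without >40 µm replicate 1 that count was 4, *Trim72* and *Cav3* being added (of all genes, 221 up and 31 down), and it was 0 without >40 µm replicate 3 or any 1 of the 3 <40 µm libraries, where at most 1 of all genes passed. *Bin1* (0.72, edgeR adjusted p = 0.237), *Myof* (0.17, 0.768) and the annexins *Anxa1* (-0.64, 0.201), *Anxa2* (-0.48, 0.345) and *Anxa6* (0.01, 0.983) did not pass. Within the >40 µm fraction, dox libraries spread widely: *Bin1* stood at 1273, 1488 and 513 CPM, *Trim72* at 208, 606 and 92.2 and *Cav3* at 153, 98.98 and 29.9. Replicate 3, the one with the fewest myotube marker counts, was the lowest for each of these, while in *Anxa2* (1156, 413 and 778) replicate 2 was.

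Whether dox acted differently between settings was tested within each table. Of 8 members tested, 1 effect was more positive at 24 h than at 0 h (13.5% of all 14448 genes), *Capn3*, and 1 more negative (21%), *Anxa2*, and 1 member was left without any 1 of the 7 libraries named for *Capn3* above. Between 120 h and 48 h, 5 members were more positive at 120 h (16.8% of all 14734 genes) and 1, *Bin1*, more negative (17%). Between the C2C12 iMcam and C2C12 iCdh23 lines, 6 were more positive in the former (7.44% of all 14552 genes) and none more negative (3%) by edgeR; 9 had an unadjusted p under 0.05 (24.6% of all genes). DESeq2 gave 6 members (of all genes, 1419 up and 721 down), and with replicate numbers as a block 8 passed (1493 up and 595 down). RLE normalisation gave 5 (1050 up and 474 down), and no low-count filter gave 4 (847 up and 298 down). Leaving out 1 library gave 4 to 7 (628 to 1208 up and 221 to 480 down). Between the >40 µm and <40 µm fractions none passed in either direction (0% and 0% of 15008 genes) by edgeR or DESeq2, with 1 member, *Capn3*, at an unadjusted p under 0.05, where 1.44% of all genes were.

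To compare genes with each other, levels were put per transcript length and scaled to library size (TPM). On this scale *Anxa2* was the most abundant member at 0 h with vehicle, at 2029 ± 87.9 TPM, and at 48 h with vehicle, at 1072 ± 45.4. *Bin1* had the higher mean in the 120 h vehicle cultures, at 761 ± 71.2 TPM against 664 ± 43.2. It did so too in the >40 µm vehicle fraction, at 897 ± 222 against 745 ± 199, where the SDs overlap. *Ano5* was low throughout, at 4.25 ± 0.535 TPM in the 120 h dox cultures where it was highest. Behind *Bin1* and *Anxa2* in the 120 h vehicle cultures, *Anxa6* stood at 284 ± 28.9 TPM, *Trim72* at 208 ± 42.99, *Anxa1* at 181 ± 12.1, *Cav3* at 135 ± 33.96, *Myof* at 102 ± 0.897 and *Dysf* at 78.99 ± 12.5.

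Lists of related genes were described beside the members. The shares of all genes that rose and fell in the same comparisons are those given above with the members' counts. Of 20 genes of the T-tubule and triad, 17 rose and 3 fell from 24 h to 48 h (median log2 fold change 4.41), among them *Cacna1s*, the calcium channel of the T-tubule (11.19), and *Ryr1*, the release channel it faces (8.47). The *Cacna1s* value rests on very few counts at 24 h and is imprecise. With dox, 9 of 17 rose and 2 fell at 0 h (median 0.40), 8 rose and 3 fell at 24 h (0.27), 2 of 20 rose and 13 fell at 48 h (-0.62), and 3 rose and 12 fell at 120 h (-0.92). At 120 h the smallest values were those of *Cacng1* (-1.97), a calcium channel subunit, and *Jph2* (-1.74), which ties T-tubule to store membrane. In the C2C12 iCdh23 line 4 rose and 16 fell (-3.22), with *Cacna1s* at -6.26 and *Mtm1*, a lipid phosphatase that acts on *Bin1* membranes, at 0.90. In the C2C12 iMcam line 3 of 19 rose and 13 fell (-1.66), and between fractions 2 of 20 rose and none fell by edgeR (0.74), with *Ryr1* at 1.66.

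Of 11 genes of caveolae, 9 rose and none fell by edgeR from 24 h to 48 h (0.79). With dox 2 rose and 8 fell at 48 h (-0.39), 2 rose and 5 fell at 120 h (-0.25), 1 rose and 9 fell in the C2C12 iCdh23 line (-0.97), and 5 fell in the C2C12 iMcam line (-0.53). *Cavin4*, the muscle cavin, was the lowest of the list in each of these 4 dox comparisons, at -1.81, -1.47, -5.37 and -1.77. At 0 h 1 rose and 6 fell (-0.31), and at 24 h 1 rose and 7 fell (-0.20). In the <40 µm fraction, *Cav1* (-1.17) and *Cav2* (-1.18) were the lowest of 3 that fell with dox. Of 15 further ferlins, annexins and S100 proteins, 4 of the 13 tested rose and 7 fell from 24 h to 48 h with vehicle (-0.32). With dox, 13 were tested at 0 h, where 1 rose and 9 fell (-0.27), and 13 at 24 h, where 3 rose and 10 fell (-0.59), *S100a10* at -1.71 and *Anxa8* at -1.68. At 48 h 4 rose and 5 fell (0.10), at 120 h 2 of 12 rose and 4 fell (-0.10), in the C2C12 iCdh23 line 9 of 13 fell (-0.77) and in the C2C12 iMcam line 1 rose and 4 fell (-0.22). *Anxa8* was the lowest of this list in each of those 4 as well (-3.04, -3.24, -6.11 and -3.23).

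Of 20 genes of the general repair machinery, such as calpains, ESCRT proteins and SNAREs, 19 were in the tables (*Vamp7* was not). From 24 h to 48 h with vehicle, 10 of these rose and 8 fell (0.15). With dox the medians of this list were 0.09 at 48 h (5 of 18 rose, 2 fell), 0.02 at 120 h (4 of 19 rose, 3 fell), 0.15 in the C2C12 iCdh23 line (5 rose, 4 fell) and 0.09 in the C2C12 iMcam line (5 rose, 1 fell). In the <40 µm and >40 µm fractions, where none passed, they were 0.10 and 0.22. At 0 h the median was 0.05 (5 rose, 3 fell) and at 24 h 0.01 (7 rose, 6 fell). *Capn2*, a ubiquitous calpain, fell in 4 of the dox comparisons (-0.22 at 0 h, -0.34 at 48 h, -0.96 in the C2C12 iCdh23 line and -0.50 in the C2C12 iMcam line), and *Ctsb*, a lysosomal protease, rose at 48 h (1.08) and in the C2C12 iMcam line (0.88). Of 28 other limb-girdle and related disease genes, 18 rose and 6 fell from 24 h to 48 h (0.62). With dox 4 rose and 15 fell at 48 h (-0.24), 2 rose and 9 fell at 120 h (-0.22), 6 of 27 rose and 14 fell in the C2C12 iCdh23 line (-0.64), and 4 of 27 rose and 11 fell in the C2C12 iMcam line (-0.21). At 0 h 9 of 26 rose and 7 fell (-0.01), and at 24 h 11 of 25 rose and 9 fell (0.12). *Ttn*, which encodes titin, had values of -1.67 at 48 h and -6.88 in the C2C12 iCdh23 line. *Sgca*, which encodes a sarcoglycan, rose with dox at 0 h (1.99), 24 h (3.22) and 48 h (0.72).

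Markers of the cell states were described beside the members, and their part in the results was not tested. All 12 myotube markers rose from 24 h to 48 h with vehicle (median 11.05, or 9.74 with the 2 genes at 0 at their bounds), all 12 fell with dox at 48 h (-1.19) and in the C2C12 iCdh23 line (-6.34), and 10 of 12 fell in the C2C12 iMcam line (-2.65). At 0 h, 3 of the 12 were tested with dox and 2 rose, both past 2-fold (1.85), and at 24 h 1 of 10 rose and 1 fell (0.10). At 120 h, 2 rose and 6 fell (-0.29), in the <40 µm fraction 1 fell (-0.59), and between fractions 2 rose and none fell by edgeR (1.42). Their sum was 16416, 15710.0 and 14973 CPM at 48 h with vehicle and 6200.2, 6416 and 6283 with dox, and 18928, 16681 and 14551 and 11464, 13617 and 13162 at 120 h. Every dox library was below every vehicle library in this sum at 48 h and at 120 h. The sum in the C2C12 iCdh23 line was 5765, 7976 and 10438 CPM with vehicle and 42.00, 52.8 and 149 with dox, in the C2C12 iMcam line 4237, 5885 and 10483 and 540.0, 585 and 1715, and in the <40 µm vehicle fraction 6831, 11269 and 9808. Replicate 3 was the highest in all 4 groups of those lines, as it was for *Trim72* and *Cav3*. *Acta1* was the most abundant of the list in all of these groups but the 120 h dox group, where *Myh3* was, and at 0 h the 12 summed to 2.07 CPM with vehicle, with *Myh8* and *Actn2* at 0.

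The 8 markers of proliferating myoblasts, of which *Myod1* is 1, summed to 2530.3 CPM at 0 h, 783 at 24 h, 1563 at 48 h and 583 at 120 h with vehicle. Of the 8, 1 rose and 7 fell from 0 h to 24 h (-1.50), and 7 rose from 24 h to 48 h (0.75). With dox they summed to 2288 CPM at 0 h, 769 at 24 h, 773 at 48 h and 653 at 120 h. With dox, 4 fell at 0 h (-0.13), 2 rose and 4 fell at 24 h (-0.14), 1 rose and 7 fell at 48 h (-1.52), 6 rose and 1 fell at 120 h (0.75), and 7 fell in each of the C2C12 iCdh23 (-4.04) and C2C12 iMcam (-2.56) lines. In those lines the sum went from 1182 to 167 CPM and from 977 to 245, with *Pax7* the most abundant in both dox groups. The <40 µm vehicle fraction held 1158 CPM and the >40 µm 691, none of the 8 passing edgeR's test between them (-1.05). No marker of this list was at 0 in any group.

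Markers of other cell types differed by type. No endothelial marker of 4 had enough counts to be tested, and none reached 1 CPM in any library. Of 4 immune markers, *Itgam* reached 5.69 CPM and *Cd68* 4.04, while *Ptprc* stayed at or below 0.237 and *Adgre1* at or below 0.0713; *Itgam* rose with dox at 120 h (2.38). Of 5 adipocyte markers only *Pparg*, which myoblast cultures also hold, was tested (up to 18.7 CPM), the others staying at or below 0.239, and it fell with dox at 0 h, 24 h, 48 h and 120 h and in both other lines. Of 5 osteoblast markers, *Runx2* reached 78.1 CPM and fell in the same 6 comparisons, *Alpl* reached 4.71 and rose with dox in the C2C12 iCdh23 line (2.40), and *Ibsp* stayed at or below 0.0952. Of 6 fibroblast markers, *Col3a1* reached 13729 CPM, *Col1a1* 1434, *Dcn* 286, *Lum* 45.4 and *Pdgfra* 41.4, while *Thy1* stayed at or below 0.282. From 0 h to 24 h, 1 of 4 fibroblast markers rose and 2 fell (-1.63). All 5 tested rose from 24 h to 48 h (4.74), and 3 of 5 fell with dox in the <40 µm fraction (-1.34). With dox, 3 of 3 fell at 0 h, 2 of 4 rose and 2 fell at 24 h, 2 of 5 rose and 3 fell at 48 h, 1 rose and 2 fell at 120 h, 4 of 4 fell in the C2C12 iCdh23 line and 3 of 5 in the C2C12 iMcam line. Of 5 smooth muscle markers, *Acta2*, which myoblasts also express, reached 3917 CPM, *Des* 2705, *Tagln* 269.4, *Cnn1* 6.99 and *Myh11* 1.37. All 4 tested from 0 h to 24 h fell (-3.60), and all 4 tested from 24 h to 48 h rose (4.18). With dox, 2 of 4 rose and 1 fell at 0 h, 3 rose and 1 fell at 24 h, 1 of 4 rose and 3 fell at 48 h, 3 of 5 rose and 1 fell at 120 h, 2 of 5 rose and 3 fell in the C2C12 iCdh23 line, and 3 of 4 fell in the C2C12 iMcam line.

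The genes whose pattern over the 16 group means was most like each member's, among 12085 genes, were ranked by Pearson r of log2 level, as a description over groups of shared lines and tables. For *Dysf* they were *Myom2* (0.944), *Mir22hg* (0.942) and *Rnf11* (0.928), for *Myof* *Irs1* (0.960), *Pls3* (0.938) and *Mbnl1* (0.914), and for *Ano5* *4632404M16Rik* (0.958), *Prkar2a* (0.929) and *9330159F19Rik* (0.925). For *Trim72* they were *Myl4* (0.997), *Lmod2* (0.997) and *Tnni2* (0.996), for *Cav3* *Myl4* (0.998), *Tnni2* (0.995) and *Tnnc1* (0.995), and for *Bin1* *Cacng1* (0.987), *Tmem109* (0.985) and *Trim54* (0.984). For *Anxa1* they were *Etv4* (0.952), *Tm4sf1* (0.947) and *Gm2115* (0.944), for *Anxa2* *S100a10* (0.930), *Vim* (0.926) and *Lurap1l* (0.914), for *Anxa6* *Myl9* (0.956), *Gamt* (0.944) and *Tagln* (0.940), and for *Capn3* *AI464131* (0.974), *Ptgr2* (0.967) and *Pdk2* (0.953).

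On the GRCm38 assembly, *Dysf* (ENSMUSG00000033788) lies on chromosome 6 from 84008590 to 84211060 and *Cav3* (ENSMUSG00000062694) on the same chromosome from 112459505 to 112472872. *Ano5* (ENSMUSG00000055489) and *Trim72* (ENSMUSG00000042828) share chromosome 7, from 51511029 to 51598709 and from 128003949 to 128011033. *Myof* (ENSMUSG00000048612) and *Anxa1* (ENSMUSG00000024659) share chromosome 19, from 37899036 to 38043577 and from 20373428 to 20390944. None of these pairs are neighbours. *Anxa2* (ENSMUSG00000032231) lies on chromosome 9 from 69453620 to 69491795, *Anxa6* (ENSMUSG00000018340) on 11 from 54979108 to 55033445, *Bin1* (ENSMUSG00000024381) on 18 from 32377230 to 32435737 and *Capn3* (ENSMUSG00000079110) on 2 from 120456019 to 120504913. *Capn3* overlaps *Ganc* on the same strand, a gene with 31800 counts over all libraries against 31288 for *Capn3*. Of the other overlapping genes, *Gm33024* and *Gm7498* at *Dysf* were not in the tables, and the 6 that were held at most 585 counts, those of the antisense *Gm16144* at *Anxa2*, against 873795 for *Anxa2*.

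MyoD1 binds E-boxes, of which CAGCTG is 1 form, and promoter sequences of the members were searched for it; no relation to their levels was tested. RefSeq promoter windows (GRCm38.p6, 250 bases before to 50 after a start) were at hand for 8 of the 10 members, in 10 windows, and not for *Anxa6* and *Bin1*. The 6 letters CAGCTG read the same on both strands, and they were searched in each window. They lay before the start in 2 members, *Cav3* (100 bases before it) and *Capn3* (208 bases before it), where 4271 of the 32851 windows hold them in their 250 bases before the start. In the windows of *Trim72* and *Anxa1*, 1 each, all 250 bases before the start lie in annotated exons; that of *Trim72* belongs to the start of *Trim72-201* at 128004378, and the bases before *Trim72-202*, which starts at 128003949, were not searched. The bases before the starts of *Cav3* and *Capn3* are printed 5′ to 3′ on the plus strand, with the match in capitals, from chr6:112459255-112459504 for *Cav3* and, short of bases that fall in an annotated exon, chr2:120463343-120463578 for *Capn3*. A match is a description and no sign of binding.
Cav3: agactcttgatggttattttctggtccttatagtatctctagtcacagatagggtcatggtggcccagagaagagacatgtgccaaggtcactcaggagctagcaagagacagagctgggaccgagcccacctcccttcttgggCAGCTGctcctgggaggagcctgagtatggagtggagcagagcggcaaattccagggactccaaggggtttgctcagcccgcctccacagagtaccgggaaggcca
Capn3: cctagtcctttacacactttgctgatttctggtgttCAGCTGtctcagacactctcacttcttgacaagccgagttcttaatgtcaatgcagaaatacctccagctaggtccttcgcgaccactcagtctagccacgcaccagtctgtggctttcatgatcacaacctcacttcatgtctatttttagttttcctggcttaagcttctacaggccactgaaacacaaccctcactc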

How the data were processed

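The deposited tables hold estimated counts per transcript, which the authors made with nf-core/rnaseq 3.18.0 and salmon on mm10 per the labels; the annotation release and strand setting are not given. Transcripts were summed to genes and rounded, and 98.72% of 109617 transcripts matched GENCODE vM21. Each comparison was fitted on its 2 groups (4 for a difference of effects) with edgeR 4.0.16 in R 4.3.3 (filterByExpr, TMM, quasi-likelihood test, adjusted p over all genes tested); past 2-fold means an adjusted p under 0.05 and a fold over 2. Levels are CPM with TMM factors over 47 libraries, and TPM used annotated transcript lengths. Tables used Python 3.11.15, numpy 2.4.6 and pandas 2.3.3, and figures matplotlib 3.10.9. The fit was tested on simulated data. Depth was 15066338 to 50950674 counts per library; floors of 3 counts cover counting error only, and replicate libraries differed by 2.95 to 377.0 in chi-square per gene.

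Members and lists were chosen with earlier results of these data known. Named genes were the 10 members, *Myod1*, *Cdh23* and *Mcam*, up to 2 genes at each end of each of 13 lists per comparison among those with an adjusted p under 0.05 (T-tubule and triad, caveolae, ferlins with annexins and S100 proteins, repair machinery, limb-girdle disease, and markers of proliferating myoblasts, myotubes, fibroblasts, adipocytes, osteoblasts, smooth muscle, endothelium and immune cells), 3 genes most like each member, and transcripts with 10% or more of a member's counts in a group. Marker genes of other types are given by their highest level. The labels number replicates, and residuals of libraries with the same number correlated in every pair for dox in the C2C12 iMcam line (0.227 to 0.419) and for >40 µm against <40 µm vehicle (0.117 to 0.413), so values with replicate number as a block stand beside the results of these 2 comparisons where they change. Block values are also given for *Myof* with dox at 120 h, for differences between the lines and for dox in the <40 µm fraction. For dox at 120 h the correlations were -0.227 to 0.0399, and in the C2C12 iCdh23 line 0.0407 to 0.15, so the block has little or no pairing to use there. The alternatives were DESeq2 1.42.0, RLE normalisation, no low-count filter, all groups in 1 fit, length-scaled counts, the replicate block, no fold threshold and leaving out each library. No column was left out.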

Additional observations from a re-analysis of the deposited data

Results flagged for a closer look

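These members are listed because edgeR's test of the difference between dox effects in 2 settings of the same table passed for them (adjusted p under 0.05); no cause was tested. At 24 h against 0 h, the difference in log2 fold change was -0.96 for *Anxa2* and 0.61 for *Capn3*. At 120 h against 48 h it was 0.63 for *Myof*, 2.13 for *Ano5*, 0.66 for *Trim72*, 0.71 for *Anxa6*, -0.49 for *Bin1* and 0.44 for *Capn3*. *Myof* and *Ano5* fell with dox at 48 h and rose at 120 h, *Trim72* and *Bin1* fell at both times, and *Anxa6* and *Capn3* rose at 120 h and did not pass at 48 h. In the C2C12 iMcam line against the C2C12 iCdh23 line it was 0.85 for *Myof*, 3.77 for *Trim72*, 0.97 for *Anxa1*, 0.91 for *Anxa2*, 0.47 for *Anxa6* and 0.99 for *Bin1*, all of which fell in both lines. Each difference of *Capn3*, and those of *Trim72* and *Anxa6* between the lines, did not hold when certain single libraries were left out, as given above with each gene.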

How the results depend on the processing

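Over 1931 values of single members under an alternative, 1832 stayed on the same side of the threshold, 62 no longer passed and 37 newly passed; the sign changed in 43 of the 1832, which passed under neither setting, and in none that passed under either. Of 218 counts of members, 23 moved by more than 1.5 times. With no fold threshold the counts were 5 with dox at 0 h, 6 at 24 h, 7 at 48 h, 8 at 120 h, 10 in the C2C12 iMcam line and 9 for 120 h against 48 h, since more genes meet the rule. The shares of all genes that rose and fell under that rule are given above with each comparison. Between fractions the count was 5 by DESeq2 and 5 with the replicate block; the cause was not tested. Leaving out 1 library gave counts from 0 to 1 with dox at 0 h (of all genes, 387 to 413 up and 169 to 228 down). At 120 h it gave 2 to 5 (894 to 1019 up and 1025 to 1386 down), and between fractions 0 to 4 (0 to 221 up and 0 to 31 down). For the difference between 24 h and 0 h it gave 1 to 2 (1675 to 1989 up and 2621 to 3084 down). For that between the lines it gave 4 to 7 (628 to 1208 up and 221 to 480 down). For dox in the <40 µm fraction, where 2 pairs of numbers remain with residuals that correlated in both, the replicate block passed *Dysf*, *Trim72*, *Anxa1*, *Anxa6*, *Bin1* and *Capn3*, none past 2-fold, and of all 14249 genes 1950 up and 2071 down; the cause was not tested. Depth limits *Ano5*, *Trim72* and *Cav3* at 0 h and 24 h, where most libraries held few counts.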
